A study of Mus musculus with 5 samples.

Results

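The genes described here are 6 members of the S100 family, S100a4, S100a6, S100a8, S100a9, S100a10 and S100a11, together with Lyz2, which encodes lysozyme M. They are 7 of the 32285 genes in each feature table and were found by their symbols. They were chosen by measured values, their levels in these libraries across cell types and between the groups, so all levels and ratios below are a description and none carries a test.

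Spleen cells of C57/BL6 mice were profiled with the 10x Genomics single cell 3' v3.1 kit 48 h after an intravenous infusion. The 5 groups, with 1 library each, had received live allogeneic cells from Balbc donors, live isogeneic cells from B6 donors, apoptotic allogeneic cells (Balbc), apoptotic isogeneic cells (B6), or saline. Each spleen suspension was digested with collagenase D and DNAse I, and CD45+ cells and dendritic cells (DCs) were enriched magnetically in separate steps and mixed again 1:1. Shares of cell types therefore reflect the enrichment as well as the spleen. How many mice went into a library is not stated in the labels, infused cells were not told apart from host cells, and with 1 library per group no spread between animals can be stated.

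S100 proteins are small cytosolic proteins that bind calcium through EF-hand loops and then attach to partner proteins. S100a8 and S100a9 pair into calprotectin, a major cytosolic protein of neutrophils that binds zinc and manganese and acts as an alarm signal once it leaves the cell. S100a4 binds non-muscle myosin and marks motile cells, S100a6 (calcyclin) binds annexins and Cacybp, S100a10 forms a complex with annexin A2 at the plasma membrane, and S100a11 binds annexin A1. Lysozyme M cleaves bacterial cell walls and is a classic product of monocytes, macrophages and neutrophils.

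All 6 S100 genes lie on chromosome 3 of GRCm38 (mm10), in 2 groups. S100a4 (90603771 to 90606045, plus strand), S100a6 (90612882 to 90624181, plus), S100a8 (90668978 to 90670035, plus) and S100a9 (90692632 to 90695721, minus) are neighbours, and S100a11 (93520488 to 93526287, plus) and S100a10 (93555080 to 93564643, plus) lie farther along. Lyz2 is on chromosome 10 (117277331 to 117282321, minus). The promoters of S100a8, S100a9 and Lyz2 are shown because these genes had the sharpest cell type patterns below and because S100a8 and S100a9 shared their class of highest level, the neutrophil-like cells. Each window runs from 250 bases before to 50 bases after the start site in RefSeq on GRCm38.p6, and 6 of the 7 genes had an entry (S100a10 had none). Capitals mark TATAAA (the TATA box) and TTNNGNAA (letters found in binding sites of C/EBP factors), searched on both strands, with no overlap between both kinds of match in these windows.
S100a8, chr3:90668821-90669120, plus strand: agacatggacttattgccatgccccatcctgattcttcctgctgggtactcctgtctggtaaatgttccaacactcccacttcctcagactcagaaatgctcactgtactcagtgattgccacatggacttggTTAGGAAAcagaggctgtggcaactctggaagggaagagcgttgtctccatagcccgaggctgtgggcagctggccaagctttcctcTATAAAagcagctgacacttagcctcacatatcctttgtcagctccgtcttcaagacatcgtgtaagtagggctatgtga
S100a9, chr3:90695672-90695971, minus strand: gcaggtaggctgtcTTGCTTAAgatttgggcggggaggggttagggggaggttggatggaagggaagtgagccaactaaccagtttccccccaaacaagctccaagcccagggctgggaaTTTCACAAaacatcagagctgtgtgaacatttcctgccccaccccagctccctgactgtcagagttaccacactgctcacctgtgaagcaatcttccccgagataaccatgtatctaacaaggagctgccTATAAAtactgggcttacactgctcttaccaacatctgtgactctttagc
Lyz2, chr10:117282223-117282522, minus strand: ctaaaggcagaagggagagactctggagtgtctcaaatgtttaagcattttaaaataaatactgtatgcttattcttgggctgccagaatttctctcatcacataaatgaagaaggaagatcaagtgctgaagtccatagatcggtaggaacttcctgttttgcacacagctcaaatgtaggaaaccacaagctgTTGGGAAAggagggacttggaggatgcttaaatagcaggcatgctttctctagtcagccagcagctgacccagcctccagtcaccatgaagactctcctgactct
The S100a8 window holds a TATAAA that begins 30 bases before the start site and 1 match of TTNNGNAA at 117 bases before it. The S100a9 window holds 2 matches of TTNNGNAA, at 236 and 130 bases before the start, and a TATAAA at the annotated start itself. The Lyz2 window holds TTNNGNAA at 55 bases before the start and no TATAAA. Such letters are common: of 32851 mouse promoters of 300 bases, 13.6% hold TATAAA and 40.7% hold TTNNGNAA, so the matches are a description and not a sign of binding.

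The libraries held 12742889 (live allogeneic), 32641733 (live isogeneic), 16049698 (apoptotic allogeneic), 24206160 (apoptotic isogeneic) and 18125660 UMIs (saline). In the same order 1185, 3680, 2114, 6263 and 2894 cells were kept, with median depths of 4974, 3880, 4466, 2267 and 3421 UMIs. Pairs of libraries shared at most 8 barcodes. Clusters formed without the 7 genes were called "like" a cell type from fixed marker lists. The UMIs of a class were then summed per library and scaled to CPM, the UMIs of a gene in a fixed total of the sum, with exact 95% Poisson intervals for sums and ratios, which cover counting error only. Free RNA was read from barcodes of 1 to 100 UMIs, which every library but the apoptotic allogeneic one contains.

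S100a8 and S100a9 were almost wholly neutrophil transcripts in these spleens. Neutrophil-like cells, in which 10 of 13 neutrophil markers stood out, were few: 18 cells after live allogeneic, 35 after live isogeneic, 17 after apoptotic allogeneic and 36 after apoptotic isogeneic infusion, and 13 after saline. They made up 1.52%, 0.951%, 0.804%, 0.575% and 0.449% of the cells kept. S100a8 stood at 69537 CPM in the neutrophil-like cells of the live allogeneic library, 54077 in the live isogeneic, 55451 in the apoptotic allogeneic, 61820 in the apoptotic isogeneic and 56813 in the saline library. S100a9 stood at 76515, 76925, 54197, 59120 and 68446 CPM in the same order. More than 1 in 10 UMIs of a neutrophil-like cell therefore came from this pair in all 5 libraries. The sums held 1094 to 4078 UMIs of S100a8, and 97.2% to 100% of the cells still had one after thinning to 1000 UMIs.

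**Figure D1:**
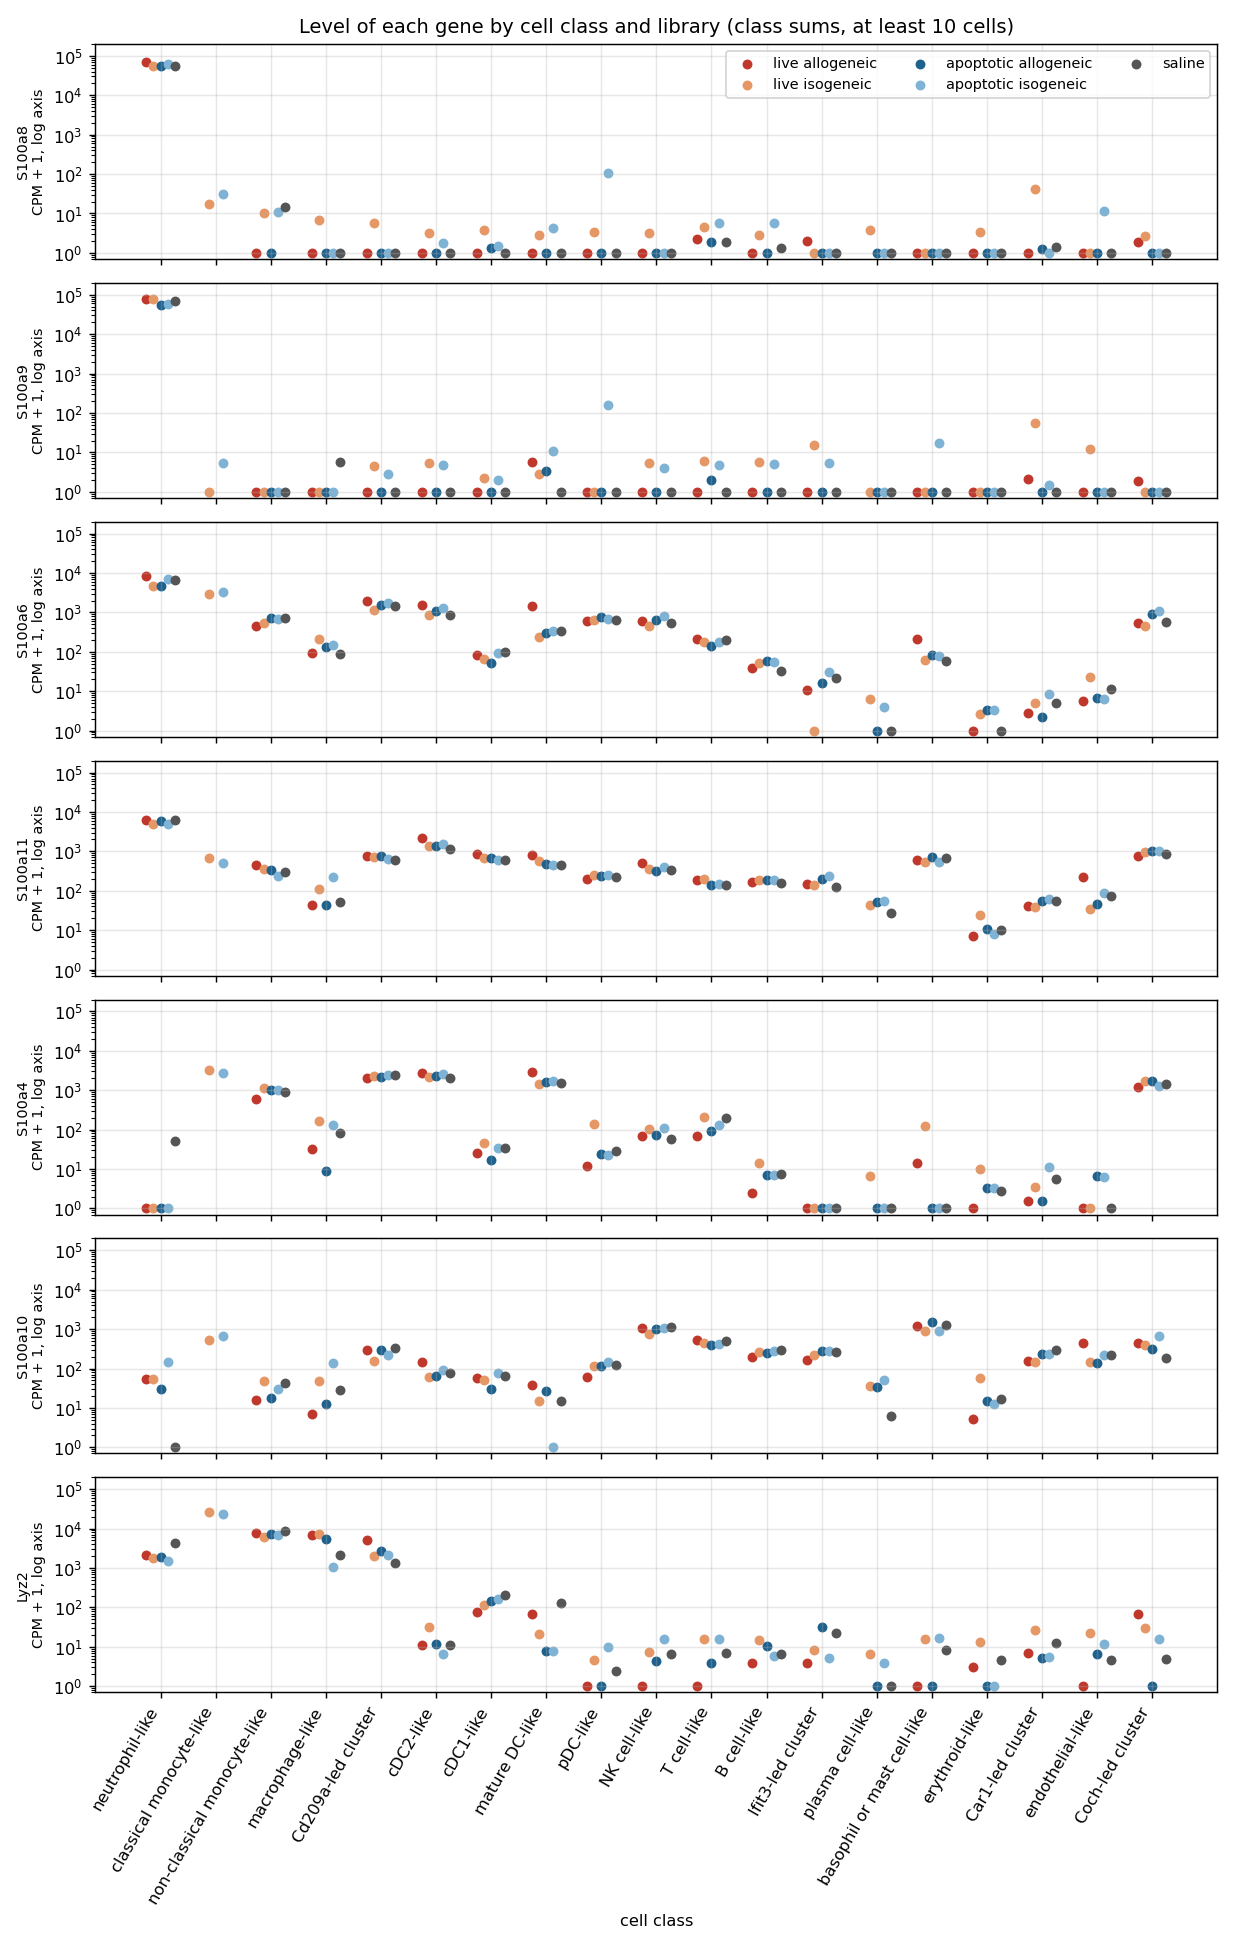
Levels of the 7 genes by class of cells, as CPM + 1 of each class sum on a log axis, with 1 point for each library with at least 10 cells of the class (the Cd209a-led cluster is cluster 1 of the text). S100a8 and S100a9 stand apart in neutrophil-like cells, Lyz2 is highest in classical monocyte-like cells, and S100a4 is high in classical monocyte-like, cDC2-like and mature DC-like cells and cluster 1 and low in cDC1-like and pDC-like cells.

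The ratio of S100a8 to S100a9 UMIs, both 3' end counts, differed among the neutrophil-like sums beyond counting error. It was 0.909 (0.862 to 0.959) after live allogeneic, 0.703 (0.675 to 0.732) after live isogeneic, 1.02 (0.959 to 1.09) after apoptotic allogeneic and 1.05 (1.000 to 1.09) after apoptotic isogeneic infusion, and 0.830 (0.765 to 0.900) after saline. Both apoptotic libraries thus had about as many UMIs of one gene as of the other, and the live and saline libraries had fewer of S100a8. In free RNA the ratio was 0.815, 0.723, 1.09 and 0.898 in the live allogeneic, live isogeneic, apoptotic isogeneic and saline libraries, again lowest in the live isogeneic and highest in the apoptotic isogeneic library. With 13 to 36 cells a sum, how far this reflects single cells or the library was not tested.

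Of the S100 genes shared with other cells, S100a6 and S100a11 were also high in neutrophil-like cells, and S100a4 and S100a10 were not. S100a6 was at 8278, 4601, 4569 and 7264 CPM after live infusion, allogeneic then isogeneic, and after apoptotic infusion, allogeneic then isogeneic, and at 6647 CPM after saline. S100a11 was at 6182, 4880, 5942, 5021 and 6336 CPM in that order, its highest median of any class. S100a4 had 0 UMIs in the neutrophil-like cells of the 4 infused libraries and 1 UMI in those of the saline library. S100a10 was at 53.1, 53.0, 29.9 and 142 CPM in the infused libraries and at 0 after saline. Lyz2 was at 2122, 1830, 1941, 1547 and 4362 CPM, more than 10 times below its level in classical monocyte-like cells in the infused libraries.

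Neutrophil-like cells carried other neutrophil genes in all 5 libraries. Retnlg, a resistin-like secreted protein, was at 11276, 8036, 8242 and 10406 CPM in the infused libraries and at 15216 CPM after saline. Csf3r, the receptor of G-CSF, was at 2839, 2917, 2359, 1721 and 2545 CPM. Il1b, an inflammatory cytokine, was at 8835 and 6020 CPM in the live allogeneic and live isogeneic libraries, 4658 and 2779 in the apoptotic allogeneic and isogeneic libraries and 3064 after saline, and Cebpb, a myeloid transcription factor, was at 1353, 2148, 567, 363 and 467 CPM. Il1b and Cebpb were thus highest in the libraries from live cells, in sums of which only those of the live and the apoptotic isogeneic libraries reach the 30 cells set as the minimum for a ratio. Across 71 sums of 19 classes and 7731 genes, the level of S100a8 was most like that of S100a9 (r = 0.979 across sums) and then Retnlg (0.977). These sums share libraries and depth, and neutrophil-like sums large enough to enter came only from the live and the apoptotic isogeneic libraries.

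Outside neutrophil-like cells S100a8 and S100a9 were rare. Of all S100a8 UMIs in kept cells, neutrophil-like cells held 99.9%, 93.7%, 99.8%, 97.0% and 99.5% in the live allogeneic and isogeneic, the apoptotic allogeneic and isogeneic and the saline libraries. The remainder came to 7, 625, 5, 271 and 6 UMIs of the pair. In the live isogeneic library 502 of the 625 sat in a single cell of cluster 14, which Car1 led and which stayed unnamed, a cell of 37870 UMIs. In the apoptotic isogeneic library 143 of the 271 sat in 1 pDC-like cell of 6979 UMIs. The remainder was otherwise spread thinly: 116 and 105 cells outside the class, these 2 among them, had a UMI of the pair in the live and the apoptotic isogeneic libraries, against 5 to 7 cells in each of the other 3 libraries.

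B cell-like cells, which should lack S100a8, set the background. S100a8 stood there at 0, 1.79, 0 and 4.75 CPM in the live allogeneic and isogeneic and the apoptotic allogeneic and isogeneic libraries and at 0.354 CPM after saline. If all haemoglobin RNA in B cell-like cells were free RNA, free RNA could have given up to 0.724, 3.49, 7.06 and 0.577 CPM of S100a8 in the 4 libraries with a free RNA profile. The B cell-like values were below these limits. Classical monocyte-like cells, in which S100a8 could be looked for as a monocyte transcript, were at 0, 16.5, 0, 30.4 and 0 CPM from 0 to 7 UMIs, and cDC2-like cells were at 0, 2.22, 0, 0.781 and 0 CPM. In the live and the apoptotic isogeneic libraries free RNA could have given classical monocyte-like cells at most 2.05 and 1.11 CPM, so that 5 and 7 UMIs of S100a8 stood above the limit, which itself rests on few haemoglobin UMIs there. Non-classical monocyte-like cells had S100a8 at 0, 9.54, 0, 9.69 and 14 CPM from at most 2 UMIs, and no S100a9. Only 2, 43, 9, 44 and 8 classical monocyte-like cells were kept, so a low level there was not detectable at this depth in 3 of the libraries. The S100a8 intervals of cDC2-like cells overlapped those of B cell-like cells in every library. They rest on 0 to 4 UMIs, too few to tell the level there from background.

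**Figure D2:**
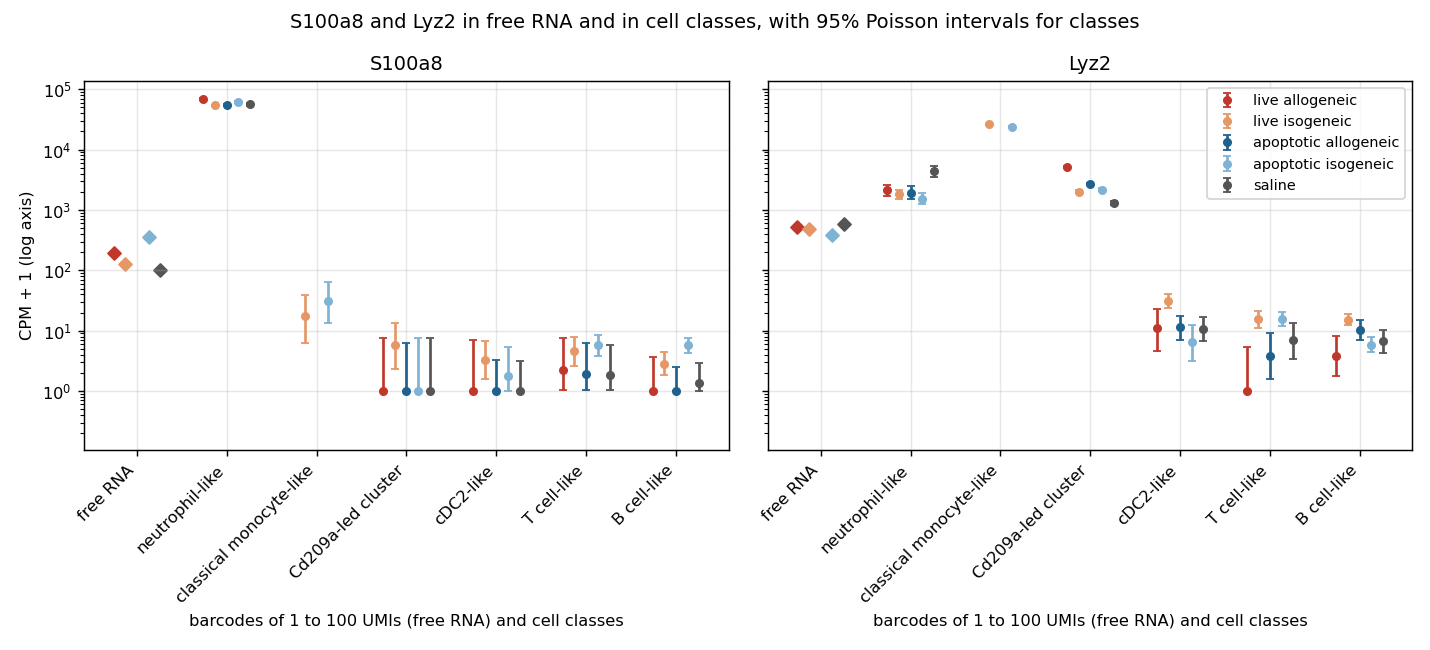
S100a8 (left) and Lyz2 (right) as CPM + 1 on a log axis, in free RNA (barcodes of 1 to 100 UMIs, diamonds, 4 libraries) and in class sums of 1 library each (circles, with exact 95% Poisson intervals). S100a8 reached 356 CPM in the free RNA of the apoptotic isogeneic library, against 100 CPM after saline, while Lyz2 was at 380 to 592 CPM in all 4.

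Free RNA held all 7 genes. S100a8 stood at 191, 124 and 356 CPM of free RNA in the live allogeneic, live isogeneic and apoptotic isogeneic libraries and at 100 CPM after saline, and S100a9 at 234, 172, 327 and 111 CPM. For the pair, the apoptotic isogeneic library was highest and the saline library lowest. S100a4 was at 303, 294, 260 and 436 CPM, S100a6 at 327, 225, 335 and 350, S100a10 at 228, 179, 286 and 263, S100a11 at 401, 357, 303 and 363, and Lyz2 at 517, 480, 380 and 592 CPM. None of these 5 genes had its highest free level in the apoptotic isogeneic library except S100a10.

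The apoptotic isogeneic library also held many S100a8 UMIs below the depth filter. Kept cells held 87.8%, 80.2%, 99%, 53.2% and 78.2% of all S100a8 UMIs of the live allogeneic, live isogeneic, apoptotic allogeneic, apoptotic isogeneic and saline files. In the apoptotic isogeneic library 26%, or 1971 UMIs, lay in barcodes of 500 to under 1000 UMIs, 10.6% in barcodes of at least 1000 UMIs that failed a filter, and 9.19% in barcodes of 1 to 100 UMIs. The 99% of the apoptotic allogeneic library is not comparable, because its file holds only barcodes of at least 500 UMIs. In barcodes of 500 to under 1000 UMIs, those with at least 2% of their UMIs from S100a8 and S100a9 numbered 1 of 218, 5 of 1076, 1 of 259, 37 of 533 and 3 of 372. In the apoptotic isogeneic library this was 6.94% of such barcodes, and the 37 barcodes carried 18361 CPM of neutrophil markers, against 167 CPM in the others of that range. A filter at 1000 UMIs therefore left out about as many barcodes rich in S100a8 in that library as it kept neutrophil-like cells, 36, and the shares of neutrophil-like cells above depend on it.

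**Figure D3:**
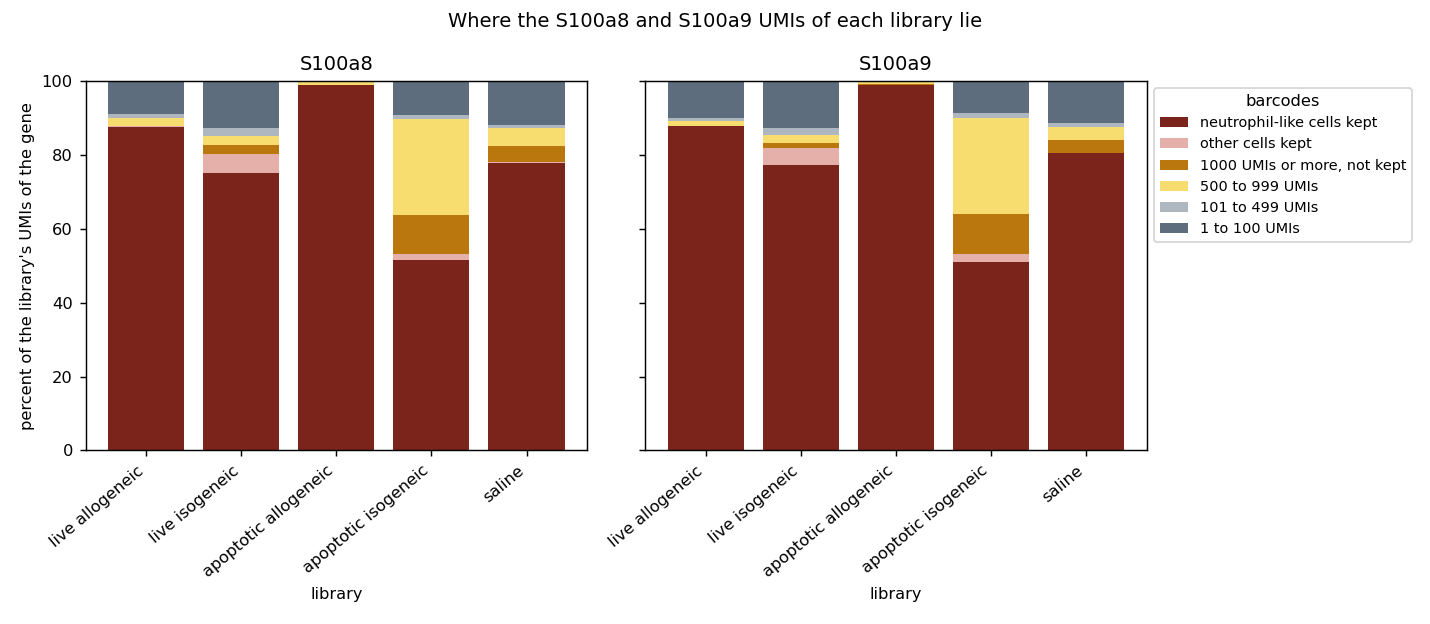
Share of all S100a8 (left) and S100a9 (right) UMIs of each library, in percent, held by neutrophil-like and other kept cells, by barcodes that failed a filter and by barcodes of lower depth. For S100a8 the apoptotic isogeneic library has 53.2% in kept cells and 26% in barcodes of 500 to under 1000 UMIs.

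S100a4 was abundant in some DC and monocyte classes and low in others, with medians over libraries of 2351 CPM in cDC2-like, 998 in non-classical monocyte-like, 33.3 in cDC1-like and 22.9 CPM in pDC-like cells. The study's title names cDC2, the conventional DC type that presents antigen mainly to CD4 T cells, and 2 sets of cells bear on it. The cDC2-like cells, in which 7 of 12 cDC2 markers stood out, numbered 76, 281, 256 and 327 after live infusion, allogeneic then isogeneic, and after apoptotic infusion, allogeneic then isogeneic, and 339 after saline. Cluster 1, led by Cd209a, numbered 45, 99, 86, 111 and 93 cells. It carried 6 of 12 cDC2 markers but stayed unnamed, because the monocyte markers Ms4a6c and Ccr2 were among its top genes.

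In cDC2-like cells S100a6, S100a10 and S100a11 were higher after live allogeneic than after live isogeneic infusion, and none of the 5 members that could be counted was past 1.5-fold between the apoptotic groups. S100a6 was at 1574 CPM after live allogeneic infusion, 836 after live isogeneic, 1119 after apoptotic allogeneic, 1263 after apoptotic isogeneic and 871 after saline. S100a11 was at 2182, 1392, 1383, 1505 and 1163 CPM in that order. S100a10 was far lower, at 146, 58.8, 63.6, 92.9 and 77.9 CPM from 88 to 135 UMIs. For all 3 the live allogeneic library was the highest of the 5. S100a4, the most abundant of the 4 by CPM, was at 2714, 2195, 2351, 2568 and 2070 CPM and varied least.

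The live allogeneic to live isogeneic fold in cDC2-like cells was 1.88 (1.73 to 2.04) for S100a6, 2.48 (1.85 to 3.32) for S100a10, 1.57 (1.47 to 1.68) for S100a11 and 1.24 (1.17 to 1.31) for S100a4. Lyz2 went the other way, at 0.332 (0.117 to 0.770), from 6 and 54 UMIs, and turned to higher when the cells of cluster 1, described below, were added (log2 ratio 1.90). Counted at 1.5-fold on the scale of log2(CPM + 10), 4 of the 5 members that reached 20 UMIs over both sums were past it, 3 higher and 1 lower, where 13% of the 8004 genes counted were past it in either direction. Because the genes were chosen with such values known, nothing is read from that difference in share. The share of cells with a UMI after thinning to 1000 UMIs went with the level: 71.1% of the live allogeneic against 54.8% of the live isogeneic cDC2-like cells for S100a6, 84.2% against 69.4% for S100a11, and 11.8% against 4.98% for S100a10. Without the 2 cells of most UMIs in each library, S100a6 was at 1503 against 816 CPM and S100a11 at 2116 against 1364 CPM. S100a10, at 146 CPM over all live allogeneic cDC2-like cells, fell to 108 CPM, against 51.1 CPM in the live isogeneic library. For S100a10 a few cells thus held a larger part of the sum, and 38 of the 76 live allogeneic cells had no UMI of it.

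**Figure D4:**
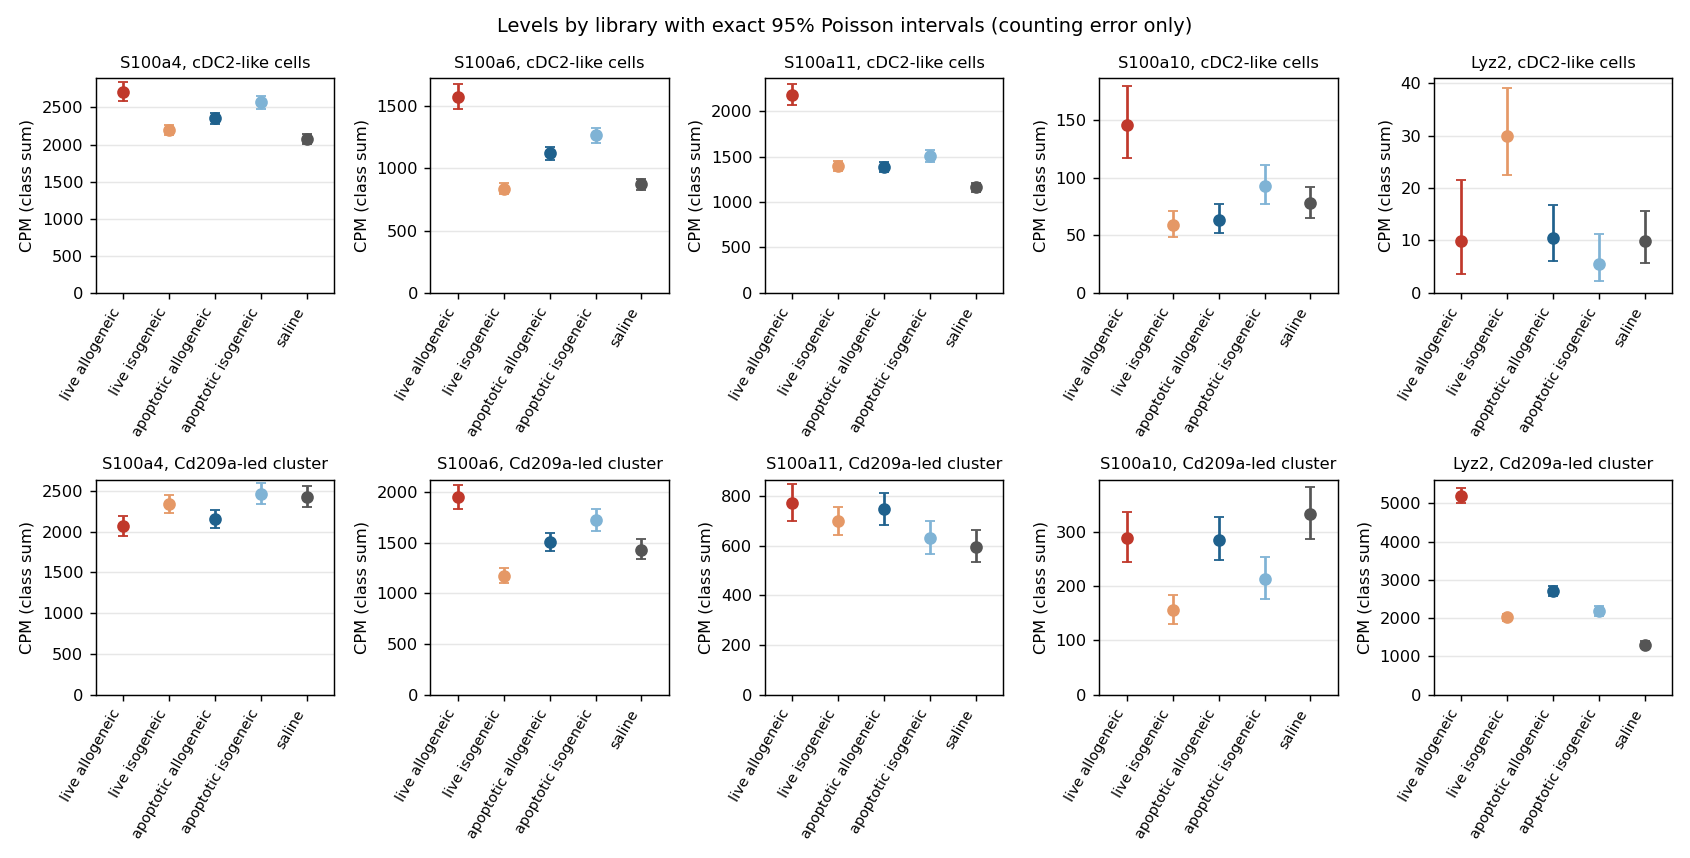
Levels of S100a4, S100a6, S100a10, S100a11 and Lyz2 in cDC2-like cells (top row) and in the Cd209a-led cluster 1 (bottom row) in each of the 5 libraries, in CPM with exact 95% Poisson intervals as bars. In cDC2-like cells the live allogeneic library is highest for S100a4, S100a6, S100a10 and S100a11, and in cluster 1 it is highest for Lyz2 at 5202 CPM.

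Between the apoptotic groups the folds in cDC2-like cells were 0.887 (0.829 to 0.949) for S100a6, 0.684 (0.520 to 0.898) for S100a10 and 0.919 (0.864 to 0.977) for S100a11, all below 1. The log2 ratio of S100a10 changed sign in 2 of 11 alternatives. Lyz2 had a fold of 1.92 (0.756 to 5.47) from 17 and 7 UMIs, which the 10 CPM added to each level brings under the threshold. On the count at 1.5-fold 0 of the 5 members were past it, against 2.87% of 8331 genes. Against saline, the live allogeneic library had 3 members higher, S100a6 at 1.81-fold, S100a10 at 1.87-fold and S100a11 at 1.88-fold, where 13.4% of genes were past the fold. The calls of S100a10 and S100a11 were lost in 4 of 12 alternatives, those in which the Cd209a-led cells count as cDC2-like. The live isogeneic library had 1 member higher, Lyz2 at 3.05-fold (1.74 to 5.62), with 5.83% of genes past it. The apoptotic allogeneic library had 0, with 3.03% of genes, and the apoptotic isogeneic library 0, with 3.16%. The 4 comparisons share the saline library, and the live allogeneic sum rests on 76 cells.

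Binding partners and other S100 genes were set beside the members. Of 13 partners and receptors of S100 proteins, 9 could be counted in cDC2-like cells between the live groups, and their median log2 ratio was 0.24, against −0.043 over all genes counted. The 1 past 1.5-fold, where 13% of all genes were, was Anxa2, the annexin that S100a10 binds, at 136 CPM after live allogeneic infusion, 81.6, 91.3 and 91.4 in the other infused libraries and 90.0 CPM after saline. Myh9, the non-muscle myosin that S100a4 binds, was at 497, 631, 484, 504 and 561 CPM in the same order of libraries. Of 12 other S100 genes 2 could be counted and 0 were past the fold, S100a13 at 91.1, 66.0, 74.7, 99.9 and 73.3 CPM and S100pbp at 59.7, 81.6, 72.2, 91.4 and 80.8 CPM.

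Genes of neighbouring cell types and myeloid factors stand against the same 13% of all genes past the fold in cDC2-like cells. Of 17 neutrophil genes 3 could be counted and 1 was higher, Mmp9, a matrix metalloproteinase, at 53.0, 11.1, 19.1, 17.2 and 13.3 CPM. Of 13 classical monocyte genes 4 could be counted and 1 was higher, Ms4a4c, at 270, 160, 156, 155 and 173 CPM, with a median log2 ratio of 0.48. Of 9 myeloid factors 8 could be counted and 1 was lower, Irf4, a transcription factor of cDC2, at 24.9, 47.7, 36.4, 28.1 and 43.9 CPM, with a median of −0.080. Anxa2, Ms4a4c and Irf4 were singled out after their values were seen. The summed classical monocyte markers stood at 807 CPM after live allogeneic and 519 after live isogeneic infusion, with Vcan, F13a1 and Chil3 at 0 in both. The summed neutrophil markers stood at 96.1 against 26.1 CPM, with Retnlg, Ngp and Ly6g at 0 in both. The part of other cells in the S100a6, S100a10 and S100a11 ratios was not tested.

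In cluster 1 the same comparison gave S100a6 at 1953, 1174, 1509, 1725 and 1434 CPM in the live allogeneic and isogeneic, the apoptotic allogeneic and isogeneic and the saline libraries, and S100a10 at 289, 156, 286, 213 and 334 CPM. The live allogeneic to live isogeneic fold was 1.66 (1.52 to 1.82) for S100a6 and 1.85 (1.46 to 2.35) for S100a10. For S100a10, however, it was the live isogeneic library that was low, since the live allogeneic level lay below that after saline. S100a4 was at 2066, 2338, 2154, 2466 and 2429 CPM and S100a11 at 771, 698, 746, 630 and 595 CPM, both within 1.5-fold. With Lyz2, 3 of 5 members were higher, where 22.1% of 6418 genes were past 1.5-fold. Between the apoptotic groups 0 of 5 were past it, against 10.4% of genes.

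Lyz2 split the 2 sets of cells. In cDC2-like cells it was at 9.94, 30, 10.5, 5.47 and 9.81 CPM, from 6 to 54 UMIs. In cluster 1 it was at 5202 CPM after live allogeneic, 2017 after live isogeneic, 2703 after apoptotic allogeneic and 2182 after apoptotic isogeneic infusion, and at 1306 CPM after saline, from 748 to 2866 UMIs. The fold between the live groups was 2.58 (2.43 to 2.74). Against saline Lyz2 was 3.98-fold, 1.54-fold, 2.07-fold and 1.67-fold higher in the live allogeneic and isogeneic and the apoptotic allogeneic and isogeneic libraries, in comparisons where 25.1%, 14.8%, 10.6% and 12.8% of genes were past 1.5-fold. Against saline S100a10 was lower in cluster 1 of the live isogeneic library, at 0.468-fold, and of the apoptotic isogeneic library, at 0.639-fold.

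In every library a few cells held a large part of the Lyz2 of cluster 1, and the largest part in the live allogeneic library. Cells with at least 10000 CPM of Lyz2 numbered 8 of 45 after live allogeneic, 6 of 99 after live isogeneic, 6 of 86 after apoptotic allogeneic and 3 of 111 after apoptotic isogeneic infusion, and 2 of 93 after saline. Without them the level fell in every library, to 513, 1163, 1367, 1704 and 1013 CPM. The live allogeneic library, the highest over all cells, was thus the lowest over the rest. The median cell had 112, 352, 641, 359 and 392 CPM, and 19, 26, 21, 37 and 27 cells had no Lyz2 UMI. After thinning, 35.6%, 43.4%, 41.9%, 47.7% and 48.4% of cells had one, the smallest share again in the live allogeneic library. The Poisson intervals of the cluster 1 ratios do not cover this spread between cells.

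**Figure D5:**
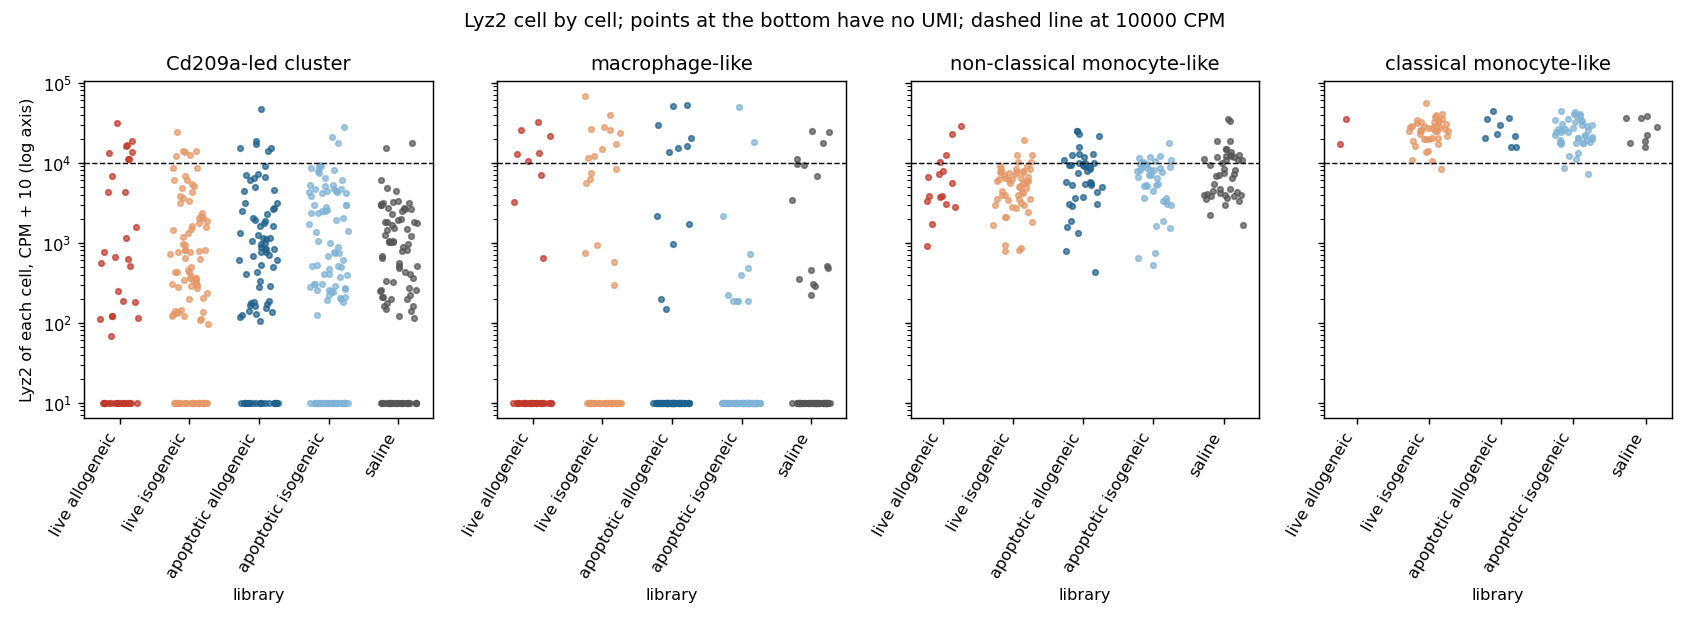
Lyz2 in single cells of the Cd209a-led cluster 1, macrophage-like and both monocyte-like classes in each library, as CPM + 10 of the cell on a log axis, with cells without a UMI at the foot and a dashed line at 10000 CPM. In cluster 1 the cells above that line number 8 in the live allogeneic library and 2 to 6 in the other 4.

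The 8 cells of the live allogeneic library had a median of 21558 UMIs, against 10015 in the other 37, and 2570 CPM of macrophage markers, against 98.3 CPM, but less of the classical monocyte markers, at 1414 against 3439 CPM. In each other library the cells above that level had more of both marker sets than the rest. The live isogeneic ones had 3635 against 118 CPM of macrophage markers and 2417 against 1382 CPM of classical monocyte markers. Whether any of these cells are another cell type or doublets was not tested. The paralog Lyz1, whose near-identical sequence makes the split of reads between both genes uncertain, was at 614, 6.0, 5.57, 14.3 and 5.24 CPM in cluster 1. Its 338 UMIs in the live allogeneic library lay in 4 cells, all of them among the 8. Over the whole of cluster 1, 12.7% of all genes counted were past 1.5-fold higher after live allogeneic than live isogeneic infusion, and 9.40% lower. Of 8 classical monocyte genes counted 6 were higher and 1 lower. Their median log2 ratio was 0.75, against 0.039 over all genes counted. The higher ones included Plac8 at 2405, 1294, 775, 1091 and 903 CPM and Ly6c2, a surface protein of inflammatory monocytes, at 646, 166, 226, 460 and 248 CPM. The summed classical monocyte markers stood at 2797, 1444, 1477, 1847 and 1617 CPM and the summed cDC2 markers at 826, 1482, 1073, 1042 and 1425 CPM, so the marker levels of cluster 1 differed between libraries, and their part in the Lyz2 and S100a6 ratios was not tested.

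Lyz2 was highest in monocytes. Classical monocyte-like cells carried 23870, 26232, 27546, 23937 and 26737 CPM in the live allogeneic and isogeneic, the apoptotic allogeneic and isogeneic and the saline libraries, from 2 to 44 cells, and non-classical monocyte-like cells 7840, 6022, 7380, 6703 and 8780 CPM. Both levels varied by less than 1.5-fold over the libraries. Macrophage-like cells were at 6720, 7228, 5390, 1056 and 2147 CPM, but 27 of 36, 36 of 54, 58 of 70, 57 of 68 and 45 of 60 of them had no Lyz2 UMI. Without the 2 cells of most Lyz2 in each library the macrophage-like level was 813, 2651, 2272, 59.9 and 535 CPM. The genes whose levels were most like that of Lyz2 over the 71 sums were Csf1r (r = 0.911), the receptor of the monocyte and macrophage growth factor M-CSF, Clec4a3 (0.894) and Pla2g7 (0.893).

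S100a4 and S100a6 were also high in classical monocyte-like cells, where S100a4 was at 4025, 3201, 2777, 2694 and 3459 CPM and S100a6 at 3955, 2976, 2876, 3384 and 3391 CPM. By median over libraries S100a4 was next highest in cDC2-like cells (2351 CPM) and cluster 1 (2338 CPM) and then in mature DC-like cells (1570 CPM), and the ranges of these 3 over the libraries overlap. S100a11 had its highest median in neutrophil-like cells (5942 CPM) and was at 1392 CPM in cDC2-like cells. cDC1-like cells, the DC type specialised in cross-presentation, were low in S100a4, at 25, 44.6, 15.8 and 33.3 CPM in the infused libraries, and carried S100a11 at 877, 675, 678, 612 and 614 CPM. Between the apoptotic groups 3 of 5 members were lower in cDC1-like cells, S100a4 at 0.476-fold (0.321 to 0.699), S100a6 at 0.549-fold (0.442 to 0.681) and S100a10 at 0.395-fold (0.300 to 0.518), with 3.32% of 9145 genes past 1.5-fold. With the mean over cells in place of the sum, S100a4 was not lower there (log2 ratio 0.10). By cluster, S100a4 was lower in cluster 27 (4.78 against 32.3 CPM) and not in clusters 13 (9.57 against 0) and 25 (56.4 against 40.8). S100a6 was lower in clusters 13 (43.1 against 78.3 CPM) and 27 (55.9 against 115) and not in cluster 25 (41.4 against 40.8). S100a10 was lower in clusters 13, 25 and 27.

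S100a10 was found in all 3 lymphocyte classes. It stood at 1091, 769, 1005, 1041 and 1116 CPM in NK cell-like cells, 529, 455, 383, 409 and 497 CPM in T cell-like cells, and 192 to 289 CPM in B cell-like cells, where free RNA could have given at most 5.67 CPM. S100a4 in T cell-like cells was at 66.9, 205, 90.8, 128 and 195 CPM and depended on the cluster. It had a median over libraries of 478 CPM in the cluster led by Ikzf2, Izumo1r and Foxp3, genes of regulatory T cells, and 410 CPM in the one led by Cxcr6 and Il2rb. It was at 7.07 CPM in the cluster led by Cd8b1 and Dapl1 and 18.5 CPM in the one led by Lef1 and Bcl11b. Within the Cxcr6-led cluster it was at 93.2 CPM in 28 cells after live allogeneic and 679 CPM in 95 cells after live isogeneic infusion.

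Between the live groups the members were also compared outside cDC2-like cells. Over the 10 other classes and clusters large enough, 46 pairs of a class and a gene could be counted, of which 4 were higher and 13 lower after live allogeneic infusion. All genes leaned the same way in most of these classes, with 1.58% higher and 6.01% lower in B cell-like cells and 3.76% and 9.78% in T cell-like cells, so nothing about the members is read from the split. With free RNA subtracted 4 were higher and 7 lower. Lower were S100a4 and Lyz2 in B cell-like cells, where 7.59% of genes were past 1.5-fold, the same 2 in T cell-like cells (13.5% of genes), S100a4 in cDC1-like cells (5.09%, with the mean over cells not lower, at a log2 ratio of 0.16), and S100a4 and S100a10 in pDC-like cells (19.2%). S100a4, S100a6 and S100a11 were lower in macrophage-like cells (35.1%), and S100a8, S100a9 and Lyz2 in cluster 14 (3.45%), where a single live isogeneic cell holds most of the pair. In macrophage-like cells the log2 ratios of S100a4 and S100a11 were past the fold in 9 of 10 alternatives and ranged up to 0. That of S100a6 turned to 2.50 once free RNA was subtracted. Its sums held only 15 to 37 UMIs over the libraries before that, so it is not read as higher. The higher ones were the 3 of cluster 1 and Lyz2 in cluster 6, which Coch led, at 66.3 against 28.2 CPM (27.5% of genes). In NK cell-like cells (28.1%) and in cluster 7, which Ifit3 led (33.6%), 0 members were past it. Most of these lower values rest on few UMIs of the live allogeneic library: S100a4 in B cell-like cells on 2 against 65, in pDC-like cells on 4 against 115, and Lyz2 in B cell-like cells on 4 UMIs at 2.83 CPM against 72 at 14.3 CPM, where free RNA could have given up to 1.96 and 13.5 CPM. In pDC-like cells the live isogeneic library stood out for S100a4, at 138 CPM against 10.7 CPM after live allogeneic infusion. The apoptotic allogeneic and isogeneic libraries were at 22.9 and 22.0 CPM and saline at 27.8 CPM. At most 4.03% of pDC-like cells had a UMI of S100a4 after thinning. The B cell-like classes differ in makeup, since cluster 11 holds 15 of 286 cells of the live allogeneic and 801 of 1385 of the live isogeneic library. Within cluster 11 S100a4 was at 16.6 CPM in those 15 cells, on at most 2 UMIs, against 12.8 CPM. It was lower after live allogeneic infusion in B cell-like clusters 9 (0 against 18.9 CPM), 10 (0 against 8.56) and 12 (7.66 against 23.7). Cluster 8 had 0 in both libraries. The Ifit3-led cluster 7, in which 13 of 14 B cell markers stood out, stayed unnamed and lies outside the B cell-like sums. It holds 223 live allogeneic and 40 live isogeneic cells, with S100a4 at 0 CPM in both libraries. The part of makeup in the lower class level was not tested.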

How the data were processed

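The authors deposited UMI counts without normalization for each gene in each barcode, processed by Cell Ranger 4.0 against the mm10 build, per the submitters' processing notes. The file of the apoptotic allogeneic library holds only barcodes of at least 500 UMIs, so it gave no free RNA profile. The 7 genes and all gene lists were chosen with earlier results of these data known.

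Barcodes with at least 1000 UMIs, 500 genes and at most 10% mitochondrial UMIs were kept, and 1, 5, 4, 117 and 8 doublets called by Scrublet (live allogeneic, live isogeneic, apoptotic allogeneic, apoptotic isogeneic, saline) were removed. The rate of 0.0843% to 1.83% leaves an unknown number of doublets. Clustering (scanpy 1.11.5, 2000 variable genes without the 7 genes, 30 principal components, 15 neighbours, Leiden resolution 1) gave 29 clusters, 4 of them unnamed. Names come from markers and may differ from the authors' annotation, which was not used here. A name needed at least 3 markers and 25% of its list.

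UMIs were summed per class and library and scaled to CPM. Folds are CPM ratios with exact conditional Poisson intervals at 95%. Log2 ratios add 10 CPM to each level, which understates changes of low genes. A gene counted with at least 20 UMIs in the 2 sums and was past the fold at 1.5 on that scale. A class was compared where every library in the comparison had 30 cells and 50000 UMIs or more. Named genes were the 7 genes, of each list up to 3 members with the most UMIs in the sums compared, and genes of the most alike levels. Shares of cells with a UMI were taken after thinning each cell to 1000 UMIs. No test was run, with 1 library per group. On simulated cDC2-like sums 99 and 93 of 100 genes changed 2-fold were past the fold, and 363 of 7792 unchanged ones. The changed genes were drawn only from genes with far more than the minimum of 20 UMIs. The simulated sums held counting error only, without spread between cells or libraries. They therefore do not show how genes of fewer UMIs fare, such as S100a10 and Lyz2 between the live groups.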

Additional observations from a re-analysis of the deposited data

Results flagged for a closer look

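In cDC2-like cells 3 genes had folds of allogeneic over isogeneic on opposite sides of 1 for live and for apoptotic cells. The fold was 2.48 for live and 0.684 for apoptotic cells in S100a10, 1.88 and 0.887 in S100a6, and 1.57 and 0.919 in S100a11. The apoptotic direction of S100a10 depended on the processing. Its log2 ratio was −0.48, with −0.54 to 0.039 over 11 alternatives, 2 of them with the other sign. In cluster 1 the fold of S100a6 was 1.66 for live and 0.875 for apoptotic cells. In B cell-like cells the fold of Lyz2 was 0.197 for live and 1.91 for apoptotic cells, on 4 against 72 UMIs for live cells and at levels near those free RNA can give. None of these differences was tested, since each group has 1 library, and each rests on counting intervals alone.

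Signal was also found in barcodes that no comparison used. In barcodes of 500 to under 1000 UMIs S100a8 stood at 441 CPM in the live allogeneic and 5075 CPM in the apoptotic isogeneic library, against 250 CPM after saline. S100a9 stood at 4874 CPM in the apoptotic isogeneic library, against 219 CPM after saline. The live allogeneic value rests on 1 of 218 barcodes with at least 2% of its UMIs from the pair, the apoptotic isogeneic values on 37 of 533.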

How the results depend on the processing

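No paired analysis was possible because each group has 1 library, and for the same reason no replicate could be left out. In cDC2-like cells the live allogeneic to live isogeneic log2 ratio of S100a6 was 0.91 (0.86 to 1.03 over 12 alternatives, all past 1.5-fold) and that of S100a10 1.18 (1.15 to 1.30, all past it). That of S100a11 was 0.64 (0.35 to 0.70) and was past it in 8 of 12. Against saline the live allogeneic ratio of S100a6 was 0.85 (0.75 to 0.96, all past it), that of S100a10 0.83 (0.54 to 0.90, 8 of 12) and that of S100a11 0.90 (0.52 to 0.97, 8 of 12), and Lyz2, at 0.0096, was past it in 4 with up to 2.87. Between the live groups Lyz2 turned over from −1.0 to 1.56 at Leiden resolution 2, 1.60 with the 7 genes allowed in clustering, 1.59 with doublets kept and 1.90 with cluster 1 added to cDC2-like cells. That addition was chosen after seeing the data, and the first 3 named the Cd209a-led cells cDC2-like.

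The count between the apoptotic groups in cDC2-like cells became 1 in place of 0 at resolution 2, with the 7 genes allowed, with doublets kept, with a pseudocount of 1 CPM and with the mean over cells. Against saline it became 2 in place of 1 for live isogeneic and 1 in place of 0 for apoptotic allogeneic cells at resolution 2, with the 7 genes allowed, with doublets kept and with cluster 1 added. For apoptotic isogeneic cells it became 1 in place of 0 with median-of-ratios size factors, a total without abundant RNA, a pseudocount of 1 CPM, the mean over cells and cluster 1 added. The 17 pairs of a class and a gene past the fold in other classes became 11 with free RNA subtracted, of which 4 were higher and 7 lower in place of 4 and 13. This could not be done for the apoptotic allogeneic library.

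Log2 ratios of S100a4 in cDC1-like cells turned over to 0.16 with the mean over cells and 0.58 with doublets kept between the live groups, and with the mean over cells to 0.10 between the apoptotic groups and 0.72 for apoptotic allogeneic against saline. In macrophage-like cells S100a6 turned over to 2.50 with free RNA subtracted between the live groups and to −1.0 with the mean over cells for apoptotic isogeneic against saline, and S100a11 to −0.11 with a 5% mitochondrial limit for live isogeneic against saline. The cause was not tested in any of these. The other log2 ratios were 1046 unmoved and 148 moved. Ratios of cluster 1 were not recomputed under other clusterings.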

Other observations

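Mature DC-like cells, DCs in the migratory state marked by Ccr7, numbered 25 in the live allogeneic library, below the 30-cell minimum, so no fold was taken. S100a4 there was at 2953 CPM after live allogeneic, 1408 after live isogeneic, 1570 after apoptotic allogeneic and 1704 after apoptotic isogeneic infusion, and at 1509 CPM after saline. S100a6 was at 1417, 234, 303, 337 and 337 CPM in that order, and S100a11 at 799, 564, 482, 441 and 451 CPM. The live allogeneic library was highest for all 3 genes, as it was in cDC2-like cells, where S100a4 stayed within 1.5-fold.

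S100a10 was also high in basophil- and mast cell-like cells, at 1172, 883, 1514 and 870 CPM in the 4 infused libraries and 1296 CPM after saline. In cDC1-like cells Lyz2 was at 77.2 CPM after live allogeneic infusion, against 113, 142 and 162 CPM in the other infused libraries and 200 CPM after saline. Its live allogeneic level was 0.387 times that after saline, with log2 ratios of −1.36 to −1.10 over the alternatives and 7.21% of genes past 1.5-fold. It was lower in clusters 27 (84.5 against 232 CPM) and 25 (35.1 against 67.2) and not in cluster 13 (173 against 151). Cluster 25, the lowest of these, held 30 of 97 cDC1-like cells after live allogeneic infusion and 45 of 310 after saline. The part of this makeup in the fall was not tested.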
